A study of Mus musculus with 12 samples.

Results

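The RBM genes encode proteins named for an RNA-binding motif, and 40 of them were followed here in cultured mouse oligodendrocyte progenitor cells (OPCs), which in the brain give rise to myelinating oligodendrocytes. The rule used only name and level: a symbol beginning with Rbm followed by a digit, s or x, not marked as a pseudogene (-ps), and a level of 1 TPM (the unit of the tables, a share of all transcripts in the library that allows for transcript length) or more in 3 or more of the 12 libraries. Of 50 symbols of that form, 4 were pseudogenes, 6 lay below the level filter and 40 passed, among 12009 symbols that passed it in the whole table. Rbm46 was just inside the filter, at 0 to 1.35 TPM, and Rbm47 just outside it, with a highest value of 0.726 TPM. The others left out for level were Rbm11, Rbm31y, Rbm44, Rbm8a2 and Rbmxl2, so nothing is said here of how they responded. The members were chosen with earlier results of these data known, so the choice of family was not blind to the data.

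RBM proteins bind RNA through RNA recognition motifs, folded domains that read short single-stranded stretches. Members of the family choose splice sites, form part of the spliceosome, mark spliced mRNA, guide N6-methyladenosine (m6A) deposition, feed nuclear RNA to the exosome and set mRNA stability and translation. Oligodendrocyte development depends on regulated splicing, with the isoforms of myelin genes as the classical example.

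The OPCs were derived from mouse pluripotent stem cells (mPSCs) in culture, so they model the progenitor outside the brain. After 1 h of attachment, in medium permissive for differentiation, they received for 4 h the DMSO vehicle or 1 of 3 quaternary ammonium compounds, with 3 libraries per group. All groups shared the supplements N2max, B27, noggin, NT3, cAMP and IGF-1. The compounds were cetylpyridinium chloride (CPC), C12-C14-Alkyl(ethylbenzyl)dimethylammonium chloride (AEBDAC) and methyltrioctylammonium chloride (MTOAC), each used at its own IC75, the concentration that gives 75% inhibition. CPC carries its charged nitrogen in a pyridine ring with a single long alkyl chain, AEBDAC carries an ethylbenzyl group and a single long alkyl chain on the nitrogen, and MTOAC carries octyl chains and a methyl group. The sources used here give no concentrations, so the compounds are matched in time and in the stated level of inhibition, not in dose. The labels do not tie the libraries of a group to separate cultures. The p-values therefore speak only to spread among these libraries, which may be technical.

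Each library was sequenced to 20 M or more reads by the stated design, and TPM values carry no other record of depth. The OPC identity was checked against 12 markers, all of which passed the filter, with a summed level of 2496 to 2755 TPM in the vehicle libraries and 1630 to 1745 TPM with MTOAC. Of markers of other cell types 4 of 8 for mature oligodendrocytes, 6 of 8 for astrocytes, 7 of 9 for neurons, 2 of 8 for pluripotent cells, 1 of 7 for mesenchymal cells and 0 of 7 for microglia passed. Vehicle library 1 stood furthest apart from the rest. Its mean correlation with the other libraries was 0.917 against 0.935 to 0.957 for the others. Transcripts of the mitochondrial genome made up 86422 TPM in it and 147539 to 183001 in the other 11. MTOAC library 3 had the next lowest mean correlation, at 0.935. The pluripotency marker Pou5f1, which did not pass the filter, was at 7.83 TPM in vehicle library 1 and 9.64 in MTOAC library 3. It was at 0 in every other library. In bulk RNA, fewer cells of a type and less RNA per cell cannot be told apart.

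Several members share sequence with another gene, and how far their reads can be told apart bears on every value. Rbmx, an X-linked regulator of splicing also known as hnRNP G, and Rbmxl1, its retrogene copy on chromosome 8, have coding sequences that are 90.2% identical in GENCODE M21, but only 1.4% of the 31-base words of Rbmx also occur in the transcripts of Rbmxl1. The first 150 coding bases of both are shown because they illustrate how often the copies differ, with the 13 differing bases in capitals.
Rbmx: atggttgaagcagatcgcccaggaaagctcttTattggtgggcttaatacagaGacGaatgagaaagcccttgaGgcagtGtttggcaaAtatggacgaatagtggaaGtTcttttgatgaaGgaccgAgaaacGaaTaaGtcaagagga
Rbmxl1: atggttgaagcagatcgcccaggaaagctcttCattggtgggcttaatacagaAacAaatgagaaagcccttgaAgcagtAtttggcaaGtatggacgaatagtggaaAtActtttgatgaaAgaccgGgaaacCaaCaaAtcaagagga
Rbm12b1 and Rbm12b2, neighbours on chromosome 4, are the opposite case, with coding sequences that are 97.8% identical and 68.1% of the 31-base words of Rbm12b1 present in Rbm12b2. Their first 150 coding bases are identical, so a read from this stretch fits either gene.
Rbm12b1: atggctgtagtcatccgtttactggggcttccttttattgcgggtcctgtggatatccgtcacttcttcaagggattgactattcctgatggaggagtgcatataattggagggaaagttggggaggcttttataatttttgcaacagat
Rbm12b2: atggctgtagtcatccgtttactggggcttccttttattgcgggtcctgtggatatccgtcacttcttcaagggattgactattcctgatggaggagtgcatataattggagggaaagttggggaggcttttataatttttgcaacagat
Overlaps of the other called members with tested genes are given with their values. Rbm4b shares 3069 exonic bases, 30.8% of its exonic sequence, with Gm37206 on the opposite strand. Rbm14 shares 349 bases, 8.9%, with Gm21844 on the opposite strand. Neither Gm37206 nor Gm21844 was among the tested genes. Among members not called, Rbm42 shares the most, with 74.4% of its words in Gm21982, which was not among the tested genes.

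Against vehicle, every member that passed the test was lower. A member was called when its p from limma, adjusted over all 12009 tested genes, was under 0.05. With MTOAC, 8 of 40 members fell, which is 20% of the family, where 5.75% of all tested genes were called lower: Rbm12, Rbm10, Rbm14, Rbm12b2, Rbm4, Rbmx, Rbm4b and Rbmxl1. With AEBDAC, 5 members fell against 0.883% of all genes (Rbm12, Rbm10, Rbm14, Rbm12b2 and Rbmxl1), and with CPC only Rbmxl1 did, against 0.0333%. The 3 comparisons use the same vehicle libraries, so their lists are not independent of each other. Because the members were chosen with earlier results known, their shares beside those of all genes describe the family and do not test it.

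No member passed the test in the higher direction with any compound, where 0.0333% of all genes did with CPC, 0.391% with AEBDAC and 0.791% with MTOAC. At an unadjusted limma p under 0.05, 1 member was higher with CPC (1.81% of all genes), 4 with AEBDAC (3.95%) and 4 with MTOAC (3.4%), and 11, 11 and 10 were lower (11.8%, 15.2% and 21% of all genes). After quantile normalization the MTOAC count became 2 higher (Rbm7 and Rbm18) and 8 lower, while over all genes 213 were then called higher and 217 lower (1.81%). The median log2 fold change of the 40 members was -0.08 with CPC, -0.004 with AEBDAC and -0.23 with MTOAC, beside -0.17, -0.16 and -0.22 over all tested genes. With MTOAC the median member thus moved about as the median gene did, and with CPC and AEBDAC it fell less. The called decreases sat in a minority of members. The summed level of the members was 1525 to 1638 TPM in the vehicle libraries and 1397 to 1506 with CPC. It was 1497 to 1538 TPM with AEBDAC and 1399 to 1637 with MTOAC.

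**Figure D1:**
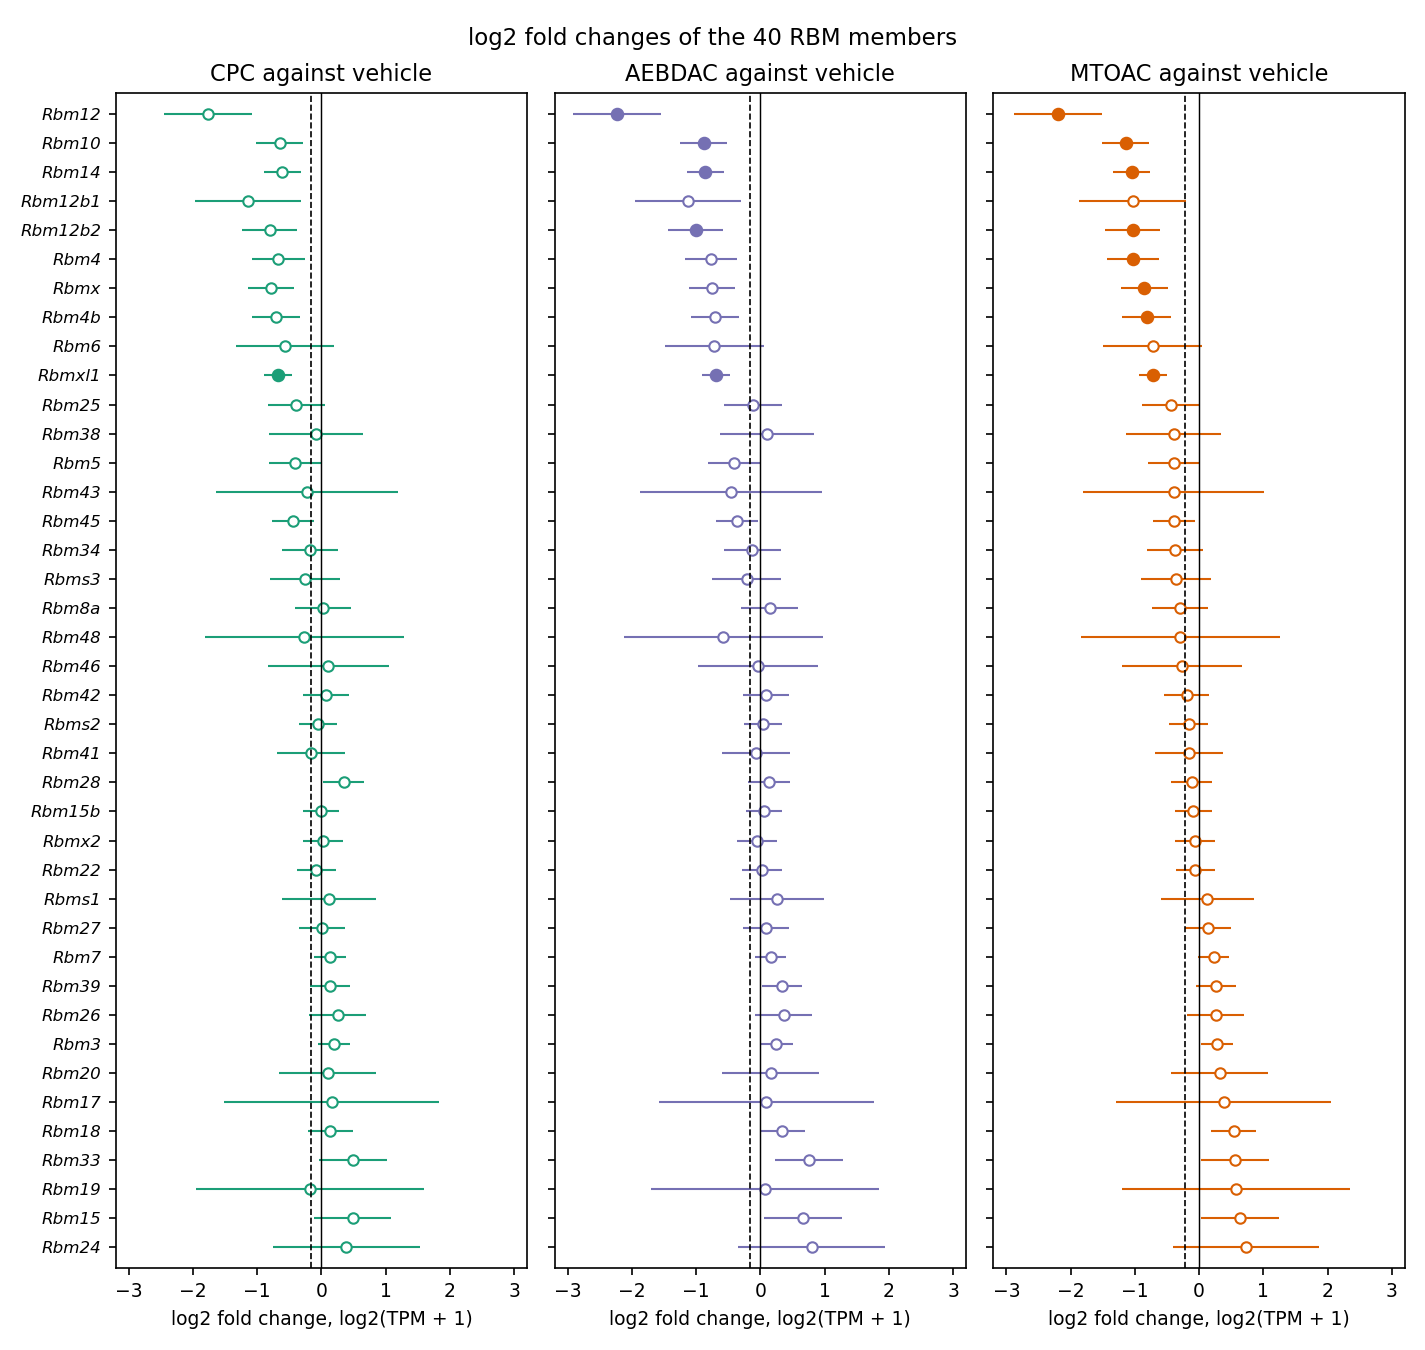
Each row is 1 of the 40 RBM members and each panel 1 compound; circles give the log2 fold change against vehicle on log2(TPM + 1), lines its 95% interval, filled circles the members called by limma, and the dashed line the median of all tested genes. The 10 members at the top lie below 0 with all 3 compounds, from Rbm12 at -2.20 to Rbmxl1 at -0.71 with MTOAC, and none of the members further down is called.

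For 12 members with CPC, 10 with AEBDAC and 10 with MTOAC the 3 exposed libraries all lay below the 3 vehicle libraries. Over all tested genes the share was 18%, 19.2% and 22.4%, so these counts (30%, 25% and 25% of the members) are not far from the background. All exposed libraries above all vehicle libraries was seen for 1, 4 and 4 members, against 2.58%, 5.65% and 3.99% of all genes.

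Rbm12, a nuclear protein with several RNA recognition motifs and long proline-rich stretches, showed the largest change of the family. It is encoded on the minus strand of chromosome 2 (chr2:156091958-156111978, GRCm38) and its whole coding sequence lies in 1 exon. Rbm12 stood at 13.99, 13.2 and 11.9 TPM in the vehicle libraries, at 3.32, 3.50 and 2.57 with CPC, at 3.55, 2.44 and 0.70 with AEBDAC and at 1.73, 2.35 and 2.12 with MTOAC. Every exposed library was below every vehicle library, by a wide margin. The log2 fold change was -2.23 (SE 0.31) with AEBDAC, adjusted p = 0.0143 by limma, and -2.20 (SE 0.31) with MTOAC, adjusted p = 0.00677. With CPC it was -1.77 (SE 0.31), which missed the threshold at an adjusted p of 0.0765 from limma.

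The transcripts of Rbm12 overlap those of 2 other genes on the same strand: 404 exonic bases are shared with Cpne1, which encodes copine 1, a calcium-dependent phospholipid-binding protein, and 2182 bases, 32.6% of its exonic sequence, with Gm28036, annotated as a protein-coding gene of its own. Gm28036 was at 78.0, 34.6 and 26.5 TPM with vehicle and at 16.8, 10.6 and 19.5 with CPC, 14.03, 1.49 and 10.8 with AEBDAC and 12.9, 5.63 and 11.97 with MTOAC. It too was lower in every exposed library, but spread widely and was not called (adjusted p = 0.357, 0.0744 and 0.0750 by limma). Cpne1 went the other way, from 24.9, 29.9 and 33.5 TPM with vehicle to 45.1, 59.6 and 54.6 with CPC, 53.3, 66.4 and 59.4 with AEBDAC and 57.5, 58.5 and 66.5 with MTOAC. Its rise was called with AEBDAC (log2 fold change 0.9999, SE 0.15, adjusted p = 0.0177) and with MTOAC (1.03, SE 0.15, adjusted p = 0.00677), not with CPC (0.83, adjusted p = 0.0765, limma).

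Summed, Rbm12 and Gm28036 were still called lower with AEBDAC (-2.43, SE 0.46, adjusted p = 0.0382) and MTOAC (-2.13, SE 0.46, adjusted p = 0.0256), and not with CPC (adjusted p = 0.215, limma). The sum of all 3 genes was 117, 77.7 and 71.8 TPM with vehicle and 65.2 to 80.6 TPM over the 9 exposed libraries. That sum gave no call with any compound, with log2 fold changes of -0.27, -0.29 and -0.25 (SE 0.16) and adjusted p-values of 0.490, 0.359 and 0.383 by limma. TPM of overlapping transcripts are estimates that divide shared reads, and the part of that division in these values was not tested.

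**Figure D2:**
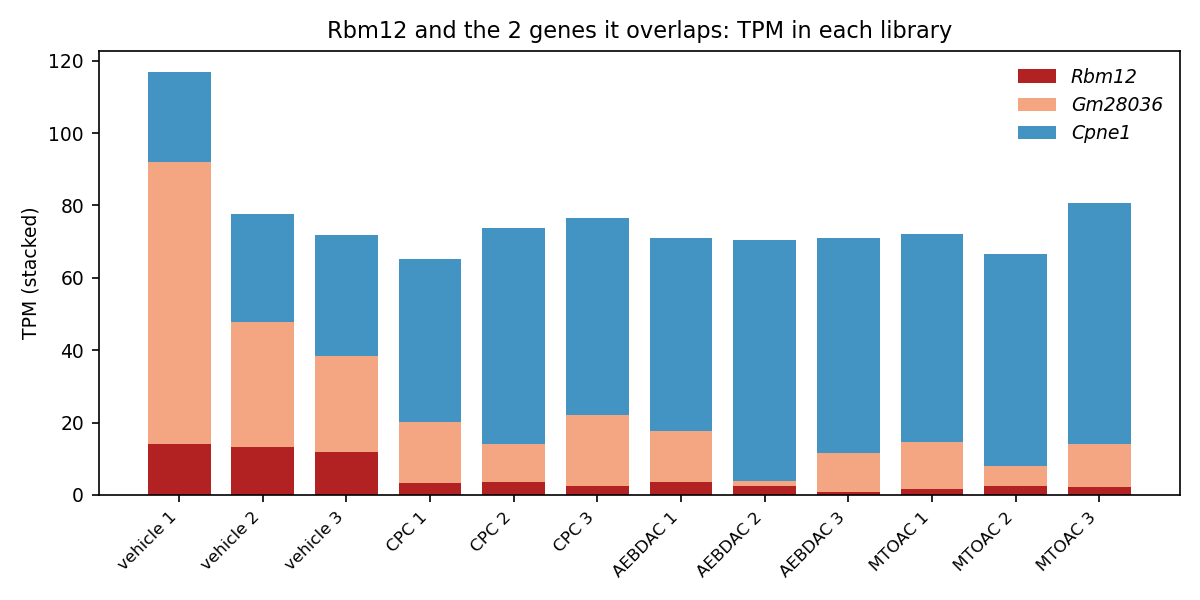
Stacked bars give the TPM of Rbm12, Gm28036 and Cpne1 in each of the 12 libraries. Rbm12 falls from 11.9 to 13.99 TPM with vehicle to 3.55 or less in the exposed libraries while Cpne1 rises, and the height of the stack is between 65.2 and 80.6 TPM in all libraries but vehicle 1.

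Among the 11 regulators of alternative splicing, 5 fell with MTOAC (5.75% of all tested genes), 2 with AEBDAC (0.883%) and 1 with CPC (0.0333%). The 5 include the related pairs Rbm4 with Rbm4b and Rbmx with Rbmxl1. Rbm10, a close relative of the tumour suppressor Rbm5 that promotes exon skipping, lies at chrX:20617503-20650901. It measured 48.0, 48.3 and 41.3 TPM with vehicle, 33.2, 25.4 and 28.1 with CPC, 29.9, 20.1 and 24.2 with AEBDAC and 21.9, 17.5 and 21.4 with MTOAC. All exposed libraries lay below all vehicle libraries, and those of MTOAC also lay below those of CPC. The log2 fold change was -0.65 with CPC (adjusted p = 0.160), -0.88 with AEBDAC (adjusted p = 0.0382) and -1.14 with MTOAC (SE 0.17 each, adjusted p = 0.00677, limma). Of its 31-base words 53.5% occur in another annotated gene, most often Gm12799, which did not pass the level filter, and 2.5% occur in other tested genes. Rbm10 shares 117 exonic bases with Ndufb11 on the opposite strand, at 128 to 238 TPM over the 12 libraries and not called against vehicle (adjusted p = 0.557 to 0.855, limma).

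Rbm5 and Rbm6, the neighbouring relatives of Rbm10 on chromosome 9, were not called. Rbm5 was at 83.2, 70.2 and 61.9 TPM with vehicle, 55.7, 55.6 and 49.1 with CPC, 50.5, 52.4 and 57.9 with AEBDAC and 47.8, 44.0 and 74.1 with MTOAC. Only the third MTOAC library reached the vehicle range (log2 fold change -0.41, -0.41 and -0.40, adjusted p = 0.357, 0.254 and 0.208, limma). Without that library Rbm5 was called, at -0.62 and an adjusted p of 0.0397, and so was Rbm25 at -0.69 and 0.0453. Rbm6 was at 74.1, 34.0 and 30.0 TPM with vehicle, 32.9, 24.8 and 27.6 with CPC, 28.6, 31.1 and 18.4 with AEBDAC and 19.99, 20.5 and 39.2 with MTOAC, so vehicle library 1 alone was high. Its log2 fold change of -0.72 with MTOAC (adjusted p = 0.232, limma) shrank to -0.33 without vehicle library 1.

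Rbm4 and Rbm4b are paralogous regulators of splicing and translation on chromosome 19 (chr19:4784293-4793901 and chr19:4756497-4767065), 85.1% identical in coding sequence. Rbm4 was at 65.9, 64.8 and 61.0 TPM with vehicle, 42.4, 35.6 and 41.6 with CPC, 40.2, 30.2 and 42.2 with AEBDAC and 32.2, 23.2 and 39.3 with MTOAC. Rbm4b was at 38.5, 29.5 and 27.2 TPM with vehicle, 22.9, 18.7 and 15.4 with CPC, 19.9, 17.9 and 18.7 with AEBDAC and 17.3, 15.9 and 19.1 with MTOAC. Neither gene had an exposed library within the vehicle range. The log2 fold changes with MTOAC were -1.02 (SE 0.18, adjusted p = 0.0145) and -0.82 (SE 0.17, adjusted p = 0.0232, limma). With AEBDAC they were -0.77 and -0.71 and with CPC -0.67 and -0.71, none of which was called (adjusted p 0.0692 to 0.191, limma). Rbm4 shares 58.8% of its 31-base words with Gm21992, an annotated gene whose transcripts run across Rbm14 and Rbm4, and summed with it Rbm4 was still called lower with MTOAC (-0.79, SE 0.14, adjusted p = 0.0147). The Rbm4b call rested on single libraries: without vehicle library 1 or 2, or MTOAC library 1 or 2, its adjusted p rose to at most 0.0816.

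Rbmx was at 100.2, 85.1 and 63.6 TPM with vehicle, 53.3, 48.0 and 40.6 with CPC, 49.99, 47.6 and 46.7 with AEBDAC and 43.0, 41.7 and 50.1 with MTOAC. The vehicle libraries spread over a wider range than the exposed ones, and the groups did not overlap. Rbmxl1 was the more even of the pair, at 154, 158 and 140.2 TPM with vehicle, 86.1, 100.04 and 95.9 with CPC, 93.5, 97.4 and 88.0 with AEBDAC and 85.3, 96.3 and 93.6 with MTOAC. No exposed library came near the vehicle range. Its log2 fold change was -0.68 with CPC (adjusted p = 0.0421), -0.69 with AEBDAC (adjusted p = 0.0174) and -0.71 with MTOAC (SE 0.10 each, adjusted p = 0.00677, limma), the only member called with all 3. Rbmx had fold changes of a like size, -0.78, -0.75 and -0.85 (SE 0.16), and was called with MTOAC alone (adjusted p = 0.0170, against 0.120 with CPC and 0.0526 with AEBDAC, limma). Without vehicle library 2, MTOAC library 1 or MTOAC library 2 the Rbmx call was lost, with an adjusted p of up to 0.0668.

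Rbmxl1 shares 82.4% of its 31-base words with Gm7324, an annotated copy of it. Summed with it, the call was kept with AEBDAC (adjusted p = 0.0198) and MTOAC (adjusted p = 0.00695) and lost with CPC (-0.62, adjusted p = 0.0541, limma). The CPC call was also lost on leaving out any 1 of the 6 libraries compared, with adjusted p between 0.0666 and 0.226. The replicate numbers in the titles paired CPC with vehicle libraries, and with that number as a replicate block 4 members were called lower with CPC, namely Rbm10, Rbm12, Rbmx and Rbmxl1, where 1.25% of all genes were.

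**Figure D3:**
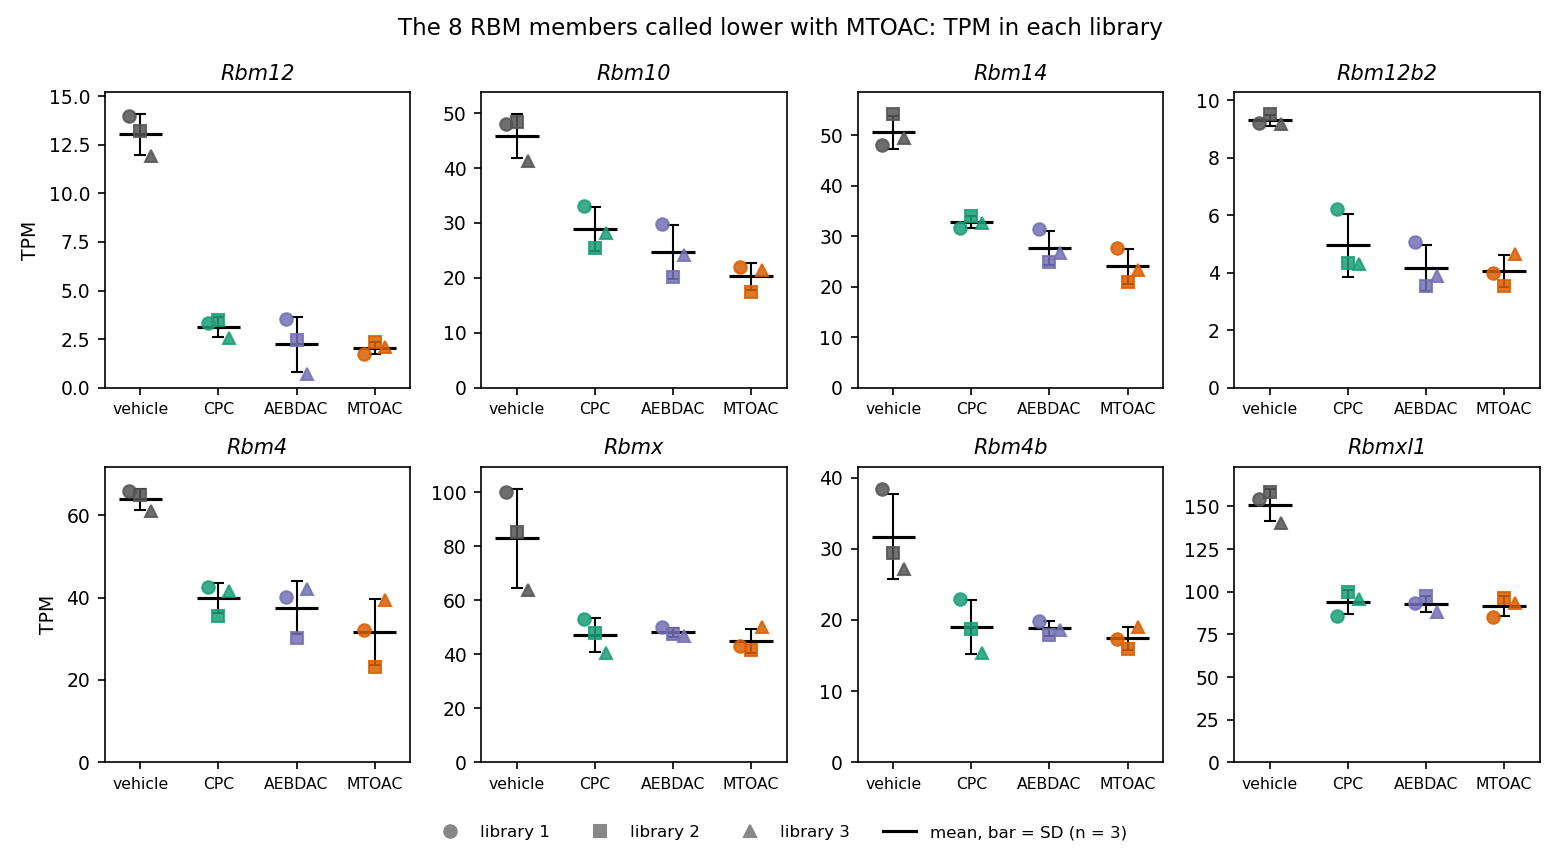
Points are the TPM of single libraries for the 8 members called lower with MTOAC, marked by library number, with the mean as a line and the SD (n = 3) as a bar; each vertical axis starts at 0. In every panel all 9 exposed libraries lie below the 3 vehicle libraries.

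The remaining regulators of splicing did not pass the test. Rbm39, a coactivator that helps U2AF recognise the 3′ splice site and one of the most abundant members, was at 173, 183 and 154 TPM with vehicle and 197, 228 and 219 with AEBDAC. With MTOAC it was at 189.9, 203 and 216 TPM. All AEBDAC and MTOAC libraries were above all vehicle libraries, at log2 fold changes of 0.34 and 0.26 (SE 0.14, adjusted p = 0.226 and 0.295, limma). With CPC, library 2 alone was high, at 236 TPM beside 162 and 169.8. Rbm25, which works with the U1 particle at the 5′ splice site, was at 31.4, 31.9 and 25.2 TPM with vehicle, 22.2, 24.1 and 20.3 with CPC, 24.4, 25.5 and 32.02 with AEBDAC and 17.1, 18.7 and 30.2 with MTOAC. The CPC libraries alone did not overlap vehicle (-0.39, adjusted p = 0.424, against -0.11 and 0.809 with AEBDAC and -0.44 and 0.207 with MTOAC, limma). Rbm17, a reader of the 3′ splice site, was at 47.7 TPM in vehicle library 1 and 65.4 in MTOAC library 3, and between 7.89 and 27.5 TPM in the other 10.

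Rbm14, a paraspeckle protein and transcriptional coactivator also known as CoAA, fell with AEBDAC and MTOAC. It lies next to Rbm4 (chr19:4800569-4811634) and shares 16.5% of its 31-base words with Gm21992. Rbm14 was at 48.0, 54.2 and 49.5 TPM with vehicle, 31.7, 34.1 and 32.6 with CPC, 31.4, 24.9 and 26.7 with AEBDAC and 27.7, 20.96 and 23.4 with MTOAC. No exposed library reached the vehicle range, and those of AEBDAC and MTOAC all lay below those of CPC. The log2 fold change was -0.61 with CPC (adjusted p = 0.124), -0.85 with AEBDAC (adjusted p = 0.0203) and -1.05 with MTOAC (SE 0.13 each, adjusted p = 0.00483, limma), the lowest adjusted p of any member.

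Rbm12b1 and Rbm12b2 encode relatives of Rbm12 and lie at chr4:12140264-12146731 and chr4:12089439-12096243. Rbm12b2 was at 9.18, 9.52 and 9.18 TPM with vehicle, 6.21, 4.33 and 4.31 with CPC, 5.06, 3.54 and 3.90 with AEBDAC and 3.98, 3.53 and 4.65 with MTOAC. Its vehicle libraries were nearly equal and the exposed ones all lower, and it was called with AEBDAC (-1.01, SE 0.20, adjusted p = 0.0404) and MTOAC (-1.03, SE 0.20, adjusted p = 0.0165, limma). Rbm12b1 was at 8.97, 7.74 and 6.18 TPM with vehicle, 4.06, 2.10 and 2.71 with CPC, 3.40, 1.06 and 5.63 with AEBDAC and 2.44, 3.72 and 3.47 with MTOAC. It was lower in every exposed library too, with wider spread and no call (-1.14, -1.13 and -1.04, SE 0.38, adjusted p = 0.245, 0.144 and 0.118 by limma). Rbm12b2 also shares 289 exonic bases with Tmem67 on the opposite strand, at 2.20 to 5.23 TPM and not called (adjusted p = 0.144 to 0.419, limma). Since the pair Rbm12b1 and Rbm12b2 shares most of its sequence, the sum does not depend on how reads were split between them. It was called with MTOAC (-1.12, SE 0.25, adjusted p = 0.0276) and not with AEBDAC (-1.12, adjusted p = 0.0538) or CPC (-1.03, adjusted p = 0.153). The MTOAC call of Rbm12b2 by itself was lost without MTOAC library 1 or 2, at an adjusted p of up to 0.0638. Its AEBDAC call was lost without any 1 compared library but AEBDAC library 1, at an adjusted p of up to 0.187. That call was also lost after quantile normalization (adjusted p = 0.0546, limma).

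Counts with AEBDAC fell in the members and in the whole table alike when any 1 compared library but AEBDAC library 1 was left out. Without AEBDAC library 1 limma called the same 5 members and 0.658% of all genes lower, against 0.883% with all libraries. Without vehicle library 2 or AEBDAC library 2 limma called 0 members and 0.05% or 0.025% of all genes lower, without AEBDAC library 3 it called 1 member and 0.0333% of all genes, and without vehicle library 1 or 3 it called 3 members and 0.167% or 0.208%. With MTOAC 7 members were called without vehicle library 1, the library that stood furthest apart (2.07% of all genes lower). Without MTOAC library 1 or 2 the number was 5 (1.93% and 0.991%). Rbm10, Rbm12, Rbm14, Rbm4 and Rbmxl1 were called with MTOAC whichever single library was left out, with adjusted p of at most 0.0476. With AEBDAC the Rbm10 call was kept only without AEBDAC library 1 (adjusted p otherwise up to 0.175, limma). The Rbm14 call was kept only without AEBDAC library 1 or vehicle library 1 (otherwise up to 0.135).

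The members were also set out by gene structure. In the representative GENCODE M21 transcripts, 5 members have their coding sequence in 1 exon (Rbm12, Rbm12b1, Rbm12b2, Rbm15b and Rbmxl1), 4 in 2 to 3 exons (Rbm14, Rbm15, Rbm4 and Rbm4b) and 31 in 4 or more. The number called lower with MTOAC was 3 of 5, 3 of 4 and 2 of 31 (Rbm10 and Rbmx). Over all 11359 tested genes with a coding model the shares were 7.57% of 753, 7.9% of 1152 and 5.5% of 9454, so the split was not seen to that extent across genes. Rbm15b and Rbm15, with 1 and 2 coding exons, did not fall. This division was looked at after the values were seen, and no test was made of it.

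**Figure D4:**
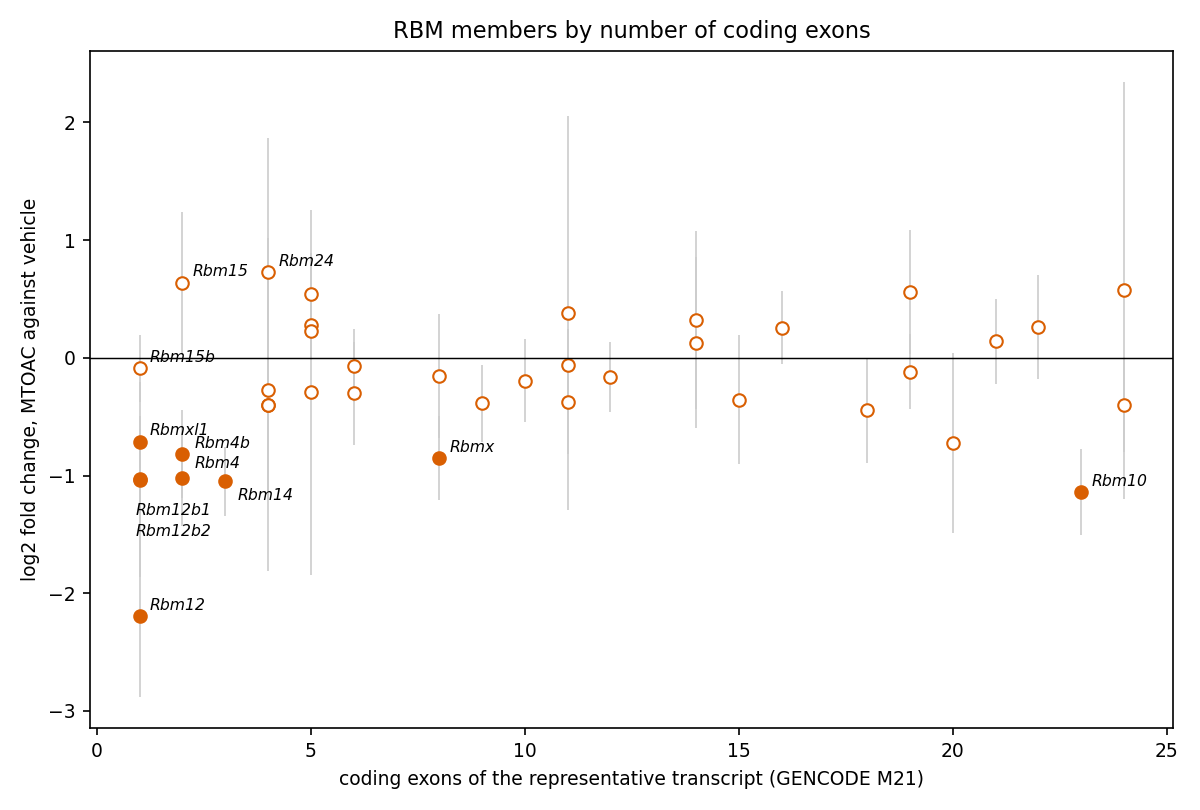
Each point is 1 RBM member, with the number of coding exons of its representative transcript on the horizontal axis and its log2 fold change with MTOAC against vehicle (95% interval in grey) on the vertical axis; filled points were called. Of the 9 members with 3 or fewer coding exons 6 were called lower, Rbm12b1 (not called) is hidden behind Rbm12b2, and Rbmx and Rbm10 are the only called members to the right.

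Promoter sequences were available from RefSeq (GRCm38.p6) for 33 members, 7 of them called with MTOAC. The 250 bases before each start were searched on both strands for TATAAA (the TATA box), CCAAT (the CCAAT box, bound by NF-Y), GGGCGG (the GC box), CCGGAAGT (an ETS site), TGACGTCA (the cyclic AMP response element), TGATGNAAT (an ATF4 and C/EBP composite site), the NRF1 palindrome and the Zbtb33 palindrome, and matches to different motifs may overlap. CCAAT occurred in 5 of the 7 called members (Rbm14, Rbm4, Rbm4b, Rbmx and Rbmxl1), in 11 of 26 members not called and in 41.7% of the 9062 tested genes with a promoter. GGGCGG occurred in 3 of 7 called members and 8 of 26 others, against 66.1% of tested genes. TGACGTCA, TGATGNAAT and the NRF1 palindrome were in none of the 33 members and in 3.1%, 0.5% and 2.0% of tested genes. TATAAA was in 6 members (18.2%, against 7.4% of tested genes), CCGGAAGT in 2 (against 7.1%) and the Zbtb33 palindrome in 1 (against 1.1%).

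The stretches before the annotated starts of 4 called members with CCAAT are shown, with each match in capitals (ATTGG where it lies on the other strand), and that of Rbm12, which holds none. They are chr19:4811635-4811884 for Rbm14, chr19:4794010-4794259 for Rbm4, chrX:57393037-57393286 for Rbmx, chr8:78508929-78509178 for Rbmxl1 and chr2:156111979-156112215 for Rbm12, all minus strand.
Rbm14: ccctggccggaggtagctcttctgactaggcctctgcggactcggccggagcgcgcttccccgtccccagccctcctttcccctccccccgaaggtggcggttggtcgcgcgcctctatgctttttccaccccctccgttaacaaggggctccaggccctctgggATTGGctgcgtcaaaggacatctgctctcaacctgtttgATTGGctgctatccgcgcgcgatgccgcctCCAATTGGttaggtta
Rbm4: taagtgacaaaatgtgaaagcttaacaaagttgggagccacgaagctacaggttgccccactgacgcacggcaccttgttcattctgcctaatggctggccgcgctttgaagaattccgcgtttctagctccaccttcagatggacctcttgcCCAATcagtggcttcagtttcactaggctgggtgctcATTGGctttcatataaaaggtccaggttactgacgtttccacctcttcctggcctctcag
Rbmx: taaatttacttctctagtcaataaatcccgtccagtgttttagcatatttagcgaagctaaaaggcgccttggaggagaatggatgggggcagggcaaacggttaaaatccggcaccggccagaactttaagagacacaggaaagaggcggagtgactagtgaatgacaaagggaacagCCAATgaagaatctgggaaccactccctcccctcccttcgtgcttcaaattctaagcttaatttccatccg
Rbmxl1: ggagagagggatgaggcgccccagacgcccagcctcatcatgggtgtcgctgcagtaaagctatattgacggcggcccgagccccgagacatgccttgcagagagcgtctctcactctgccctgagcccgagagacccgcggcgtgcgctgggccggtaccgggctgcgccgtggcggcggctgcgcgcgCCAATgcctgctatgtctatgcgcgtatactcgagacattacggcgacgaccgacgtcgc
Rbm12: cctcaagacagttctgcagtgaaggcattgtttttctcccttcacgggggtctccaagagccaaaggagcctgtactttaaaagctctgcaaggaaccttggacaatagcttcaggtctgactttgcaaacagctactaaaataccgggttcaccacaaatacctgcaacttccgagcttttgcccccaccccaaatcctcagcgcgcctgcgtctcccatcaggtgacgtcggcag
Rbm14 holds 4 matches, of which a pair on opposite strands overlap, Rbm4 holds 2, and Rbmx and Rbmxl1 hold 1 each. A match is a description of these letters and was not tied to binding of any factor.

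None of the 6 members of the spliceosome and exon junction complex was called with any compound, and 0 had an unadjusted p under 0.05 (limma). Their log2 fold changes ran from -0.26 to 0.07 with CPC, -0.57 to 0.14 with AEBDAC and -0.30 to -0.06 with MTOAC. Rbm8a, the Y14 subunit that the spliceosome leaves on mRNA upstream of exon junctions, was at 17.7, 20.4 and 17.8 TPM with vehicle, 18.4, 23.9 and 15.4 with CPC, 22.0, 20.6 and 19.4 with AEBDAC and 12.6, 20.2 and 12.9 with MTOAC. MTOAC library 2 was as high as the vehicle libraries, and the fold change of -0.30 with MTOAC had an adjusted p of 0.386 (limma). Rbm22, a component of the activated spliceosome, kept between 42.7 and 59.2 TPM in all 12 libraries.

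Of the 3 members tied to m6A none was called, and Rbm15 and Rbm33 had higher means with each compound. Rbm15, which recruits the methyltransferase complex to RNA, was at 2.74, 5.29 and 5.54 TPM with vehicle, 5.36, 7.34 and 6.97 with CPC, 5.85, 8.44 and 8.47 with AEBDAC and 6.14, 6.17 and 10.3 with MTOAC. Vehicle library 1 was lowest, and the AEBDAC and MTOAC libraries all lay above the vehicle range (log2 fold change 0.66 and 0.64, SE 0.27, adjusted p = 0.218 and 0.179 by limma). Without vehicle library 1 these became 0.41 and 0.38. Rbm33, which acts with the m6A demethylase Alkbh5, was at 13.6, 14.9 and 11.02 TPM with vehicle, 14.1, 24.4 and 19.1 with CPC, 18.7, 25.5 and 25.0 with AEBDAC and 14.6, 20.3 and 25.6 with MTOAC. Only the AEBDAC libraries lay wholly above vehicle (0.76, SE 0.24, adjusted p = 0.124, limma). Rbm15b, the paralogue of Rbm15, lay between 25.9 and 34.7 TPM, with a mean of 30.7 with vehicle, 30.7 with CPC, 32.0 with AEBDAC and 28.9 with MTOAC.

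The members that act in nuclear RNA decay were also slightly higher in mean and not called. They are Rbm7, a subunit of the nuclear exosome targeting complex, and Rbm26 and Rbm27, partners in exosome-linked decay of polyadenylated RNA, with fold changes of 0.01 to 0.25 with CPC, 0.09 to 0.36 with AEBDAC and 0.14 to 0.26 with MTOAC. Of the 3 nucleolar members, Rbm28, a ribosome assembly factor, was at 14.6, 13.4 and 13.4 TPM with vehicle, 16.4, 19.9 and 17.3 with CPC and 12.03, 12.9 and 13.02 with MTOAC. It lay above the vehicle range with CPC (0.35, SE 0.15, adjusted p = 0.343) and below it with MTOAC (-0.12, adjusted p = 0.677, limma). Rbm19, another ribosome assembly factor, was listed at 0, 2.05 and 6.01 TPM with vehicle, 0, 4.09 and 1.88 with CPC, 1.07, 2.70 and 2.22 with AEBDAC and 5.61, 6.20 and 0.481 with MTOAC. All groups overlapped (adjusted p = 0.948, 0.975 and 0.719, limma).

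Rbm3, the cold-inducible RNA-binding protein known for supporting translation and synapses in the cooled brain, was the most abundant member in TPM, a scale that allows for transcript length. It was at 314, 425 and 418 TPM with vehicle, 454, 439 and 418 with CPC, 468, 453 and 445 with AEBDAC and 472, 452 and 472 with MTOAC. The AEBDAC and MTOAC libraries all lay above the vehicle libraries, of which library 1 was far lower than the others, and the log2 fold changes of 0.25 and 0.28 (SE 0.11) were not called (adjusted p = 0.259 and 0.155, limma). Without vehicle library 1 they were 0.11 and 0.14. Its closest relative Cirbp, the other cold-inducible RNA-binding protein, fell with MTOAC. Cirbp was at 65.9, 44.2 and 42.8 TPM with vehicle, 33.6, 19.8 and 20.9 with CPC, 31.5, 24.9 and 21.4 with AEBDAC and 22.5, 20.7 and 19.9 with MTOAC. All exposed libraries were below vehicle, with a call for MTOAC (-1.21, SE 0.23, adjusted p = 0.0160) and none for CPC (-1.02, adjusted p = 0.124) or AEBDAC (-0.94, adjusted p = 0.0699, limma).

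The other 6 members of the stability and translation group were not called. Rbm24, a regulator of mRNA stability and of muscle splicing, was at 12.7, 6.30 and 14.7 TPM with vehicle, 16.4, 7.22 and 23.6 with CPC, 23.5, 9.59 and 30.8 with AEBDAC and 21.1, 10.3 and 27.7 with MTOAC. Library 2 was lowest and library 3 highest in each of the 4 groups, so the ranges overlapped although each numbered library was higher with each compound than the vehicle library of the same number. The log2 fold change was 0.80 with AEBDAC and 0.73 with MTOAC (SE 0.52, adjusted p = 0.432 and 0.421, limma), and 0.46 and 0.40 without vehicle library 2. Over all genes the library numbers did not pair AEBDAC or MTOAC with vehicle. With the number as a replicate block, Rbm24 was called higher with both (adjusted p = 0.0111 and 0.00808, limma). In that fit 225 of the 12009 tested genes were called higher with AEBDAC and 245 with MTOAC. Rbms1 and Rbms2, which bind single-stranded nucleic acid, Rbms3, Rbm38, a p53 target that stabilises mRNA, and Rbm46 had fold changes between -0.40 and 0.26 over the 3 compounds.

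Of the members with no stated role here, Rbm18 had the highest means with MTOAC, at 48.9, 51.4 and 64.3 TPM against 42.7, 35.1 and 34.2 with vehicle. The groups did not overlap, and its log2 fold change of 0.54 (SE 0.16) had an adjusted p of 0.0648 by limma. With CPC the Rbm18 libraries were at 37.3, 43.6 and 42.1 TPM and with AEBDAC at 38.6, 50.8 and 54.1, both overlapping vehicle. Rbm45, a protein that gathers in inclusions in neurodegeneration, was at 35.0, 25.4 and 34.4 TPM with vehicle and 20.5 to 26.1 over the exposed libraries, with fold changes of -0.44, -0.36 and -0.39 and adjusted p of 0.253, 0.217 and 0.139 (limma).

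**Figure D5:**
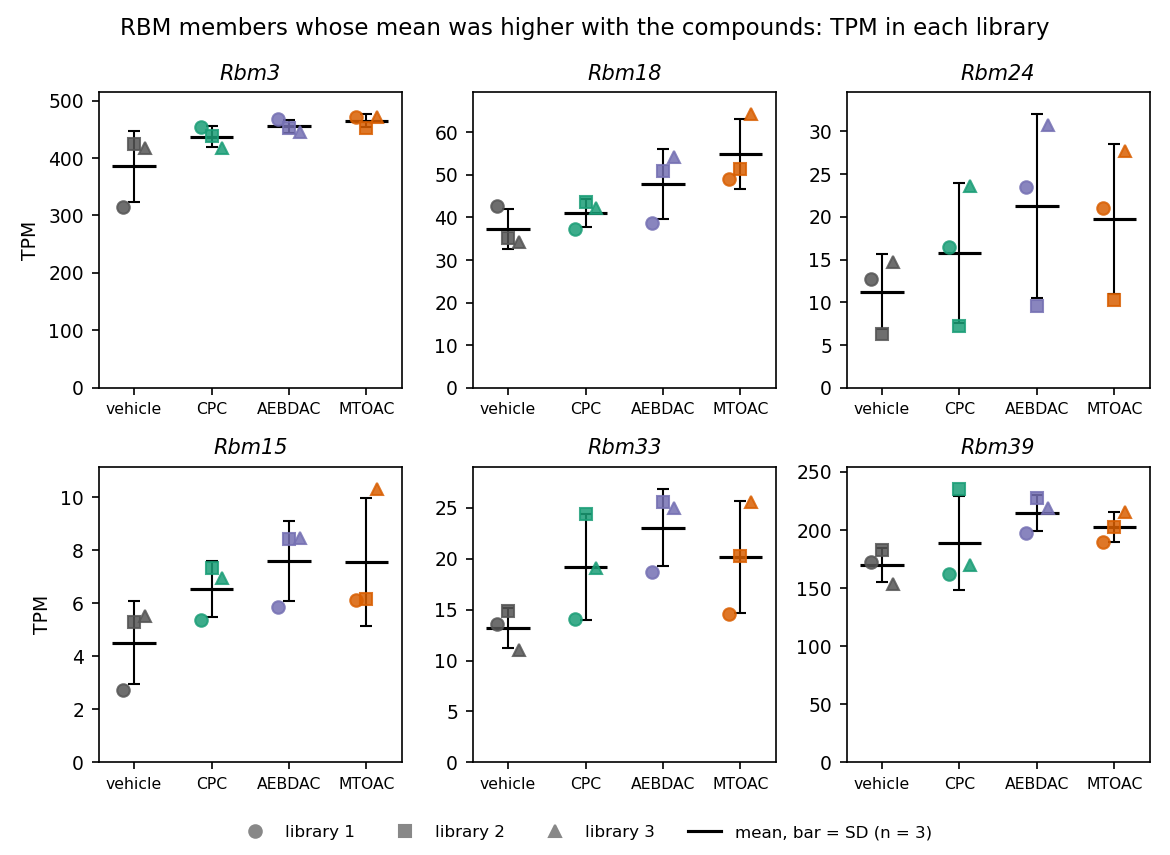
Points are the TPM of single libraries for 6 members whose mean was higher with the compounds than with vehicle, marked by library number, with the mean as a line and the SD (n = 3) as a bar. Vehicle library 1 is lowest for Rbm3 and Rbm15, and in Rbm24 library 2 is lowest within each group.

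No member differed between compounds by the test. In the 3 pairwise comparisons limma called 0 of 40 members and 0% of the 12009 tested genes, with an adjusted p of 1 as the lowest among the members. At an unadjusted p under 0.05 there were 0 members between AEBDAC and CPC (0.999% of all genes higher and 0.758% lower). Between MTOAC and CPC there were 4, with Rbm10, Rbm14 and Rbm28 lower (2.81% of all genes) and Rbm18 higher with MTOAC (0.933%). Between MTOAC and AEBDAC there was 1, Rbm8a, lower with MTOAC (2% of all genes lower and 0.558% higher). Libraries did not overlap between AEBDAC and CPC for Rbm25 (higher with AEBDAC, as for 4.02% of all genes) and Rbm14 (lower, 2.86%). Between MTOAC and CPC they did not overlap for Rbm18 (higher with MTOAC, 2.26%) and for Rbm10, Rbm12, Rbm14 and Rbm28 (lower, 6.35%), and between MTOAC and AEBDAC for 0 members, where 1.32% of all genes were higher and 5.61% lower. For Rbm14 the difference between MTOAC and CPC was -0.44 log2 with a 95% interval from -0.73 to -0.15, and for Rbm10 it was -0.49 with an interval from -0.85 to -0.12. For Rbmxl1 the differences were -0.01 (interval -0.24 to 0.21) between AEBDAC and CPC, -0.03 (-0.26 to 0.19) between MTOAC and CPC and -0.02 (-0.24 to 0.20) between MTOAC and AEBDAC. Rbm12 differed by -0.46 (-1.15 to 0.22), -0.43 (-1.11 to 0.26) and 0.04 (-0.65 to 0.72) in the same order. The half-width of the interval was 0.43 log2 for the median member, without adjustment over all genes. Differences between the pyridinium, ethylbenzyl and octyl compounds of less than that were mostly out of reach. With the adjustment larger ones could be missed too, as Rbm10 at -0.49 between MTOAC and CPC was not called. An adjusted p of 1 does not show that the compounds act alike.

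The complexes in which RBM proteins work were followed through 117 tested partner genes. With CPC limma called 0 (29 had an unadjusted p under 0.05, the lowest adjusted p being 0.0765). With AEBDAC 3 were lower, which is 2.6% against 0.883% of all genes. With MTOAC 11 were lower, which is 9.4% against 5.75% of all genes, and 1 was higher, as were 0.791% of all genes. The counts by complex below are small and stand beside the same shares of all genes. The median log2 fold change of the partners was -0.19, -0.17 and -0.25, close to that of all genes. The partner lists too were chosen with earlier results of these data known, so these shares are descriptive. Of the 11 tested genes around the U1 particle, which recognises the 5′ splice site, 3 fell with MTOAC: the U1 subunits Snrnp70 (37.8 ± 3.31 to 24.6 ± 0.377 TPM, SD, n = 3; adjusted p = 0.0141, limma) and Snrpa (adjusted p = 0.0290) and the U1-associated Luc7l3 (adjusted p = 0.0165). Luc7l3 also fell with AEBDAC (-0.78, adjusted p = 0.0404). Around the U2 particle Sf3b4 and Phf5a, both subunits of SF3B, fell with MTOAC (adjusted p = 0.0390 and 0.0400, limma), 2 of 18.

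Among the 20 genes of the activated spliceosome, Plrg1 fell with MTOAC and the prolyl isomerase Ppil1 fell with AEBDAC and MTOAC (-0.68 and -0.89). Of the 17 genes of the exon junction complex and nonsense-mediated decay, the helicase Upf1 (33.5 ± 0.339 to 21.045 ± 1.12 TPM, SD, n = 3) and Upf3b, which links the decay machinery to the junction complex (5.39 ± 1.02 to 0.987 ± 0.191 TPM), fell with MTOAC, with adjusted p-values of 0.0132 and 0.0143 by limma. Among the 19 genes of the nuclear exosome and its adaptors, the cap-binding subunit Ncbp2 fell with AEBDAC and MTOAC (-0.91 and -0.94) and Zfc3h1 fell with MTOAC (-1.63), while Zcchc8, the scaffold that holds Rbm7 in its complex, rose with MTOAC (14.03 ± 3.44 to 24.0 ± 2.28 TPM, SD, n = 3; 0.76, adjusted p = 0.0359, limma). None of the 12 m6A genes, 12 minor spliceosome genes or 8 kinases of splicing proteins was called with any compound, with a lowest adjusted p of 0.0519 by limma.

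The summed OPC markers were lower with each compound, and Olig1 was the largest part of the sum. Olig1, the oligodendrocyte lineage transcription factor, fell from 1194 ± 154 to 531 ± 79.0 TPM with MTOAC (SD, n = 3, adjusted p = 0.00647, limma), and Pdgfra, Gpr17 and Sox8 fell as well, 4 of 12 markers. The OPC markers not called with MTOAC did not move alike. Olig2, Sox10, Cspg4 and Nkx2-2 had log2 fold changes of -0.46, -1.19, -0.26 and -0.31. Ptprz1, Cspg5 and Bcan stood at -0.02, -0.01 and -0.11, and Lhfpl3 at 0.37. Olig1 also fell with AEBDAC (adjusted p = 0.0404, limma). Markers of mature oligodendrocytes summed to 53.6 to 77.0 TPM with vehicle and 35.7 to 48.8 TPM with MTOAC, with Cnp, a myelin enzyme, called lower (adjusted p = 0.0232, limma). The OPC sums were 1970 to 2126 TPM with CPC and 1824 to 2174 with AEBDAC. Markers of neurons summed to 436 to 484 TPM with vehicle and 274 to 355 with MTOAC, most of it Map2 (411 ± 22.1 to 261 ± 45.3 TPM, called lower), and those of astrocytes to 217 to 274 and 199 to 227 TPM. The part of these shifts in the levels of the RBM members was not tested.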

How the data were processed

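Per the submitters' processing notes, reads were handled with Salmon and the mm10 build (version and transcript annotation: not given in the sources used here). For each library the authors' deposited table holds TPM by gene symbol. The series' design text states poly(A) selection and 150 bp paired reads. TPM are scaled within a library, so a few abundant transcripts shift all others. Over the listed symbols they summed to 772637 to 797758 per library, lowest in vehicle library 1, so part of the full TPM scale is absent. Version 3.58.1 of limma (R 4.3.3, trend and robust moderation) was run on log2(TPM + 1) with 12 libraries and 4 group means; fold changes on this scale understate those of low genes. Tested were genes reaching 1 TPM in 3 or more libraries, and two-sided p-values were adjusted by Benjamini and Hochberg over all 12009 genes. Intervals are 95%. An exact permutation of 3 against 3 has a smallest p of 0.1 and was not used. The fit was tested on simulated data. Members and lists were chosen with earlier results of these data known. Values in every library are given for members called in any comparison, for the 3 largest changes each way per compound among the others, and for 11 members chosen by name. Replicate numbers were taken to pair groups where all 3 correlations of deviations exceeded 0.1. This held for CPC with vehicle (0.34, 0.31 and 0.23), AEBDAC with CPC (0.28, 0.42 and 0.23) and MTOAC with AEBDAC (0.33, 0.36 and 0.3). It did not hold for AEBDAC with vehicle (0.08, 0.25 and 0.03), MTOAC with vehicle (-0.03, 0.35 and -0.19) or MTOAC with CPC (0.17, 0.4 and 0.09). Coordinates, exons and 31-base words come from GENCODE M21 on GRCm38, the assembly of mm10. Alternatives were another pseudocount, no filter, quantile normalization, rescaling without mitochondrially encoded genes, the replicate block, only the compared groups, and leaving out each library.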

Additional observations from a re-analysis of the deposited data

How the results depend on the processing

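The counts of called members moved with the processing, and so did the share of all genes called lower, given as a percentage. Member counts include higher calls where these are named, and the percentages cover lower calls only. With CPC (1 member, 0.0333%) the count became 0 without the filter (0.00958%), after quantile normalization (0.0333%) and with only the compared groups in the fit (0%), and 3 with the replicate block and quantile normalization (0.3%); leaving out any 1 library gave 0 to 0 (0% to 0.025%). With AEBDAC (5, 0.883%) it was 3 without the filter (0.115%), 0 with only the compared groups (0%), 10 with the replicate block (2 higher, Rbm24 and Rbm33; 7.05%) and 13 with the block and quantile normalization (5 higher; 3.5%), and 0 to 5 with 1 library left out (0.025% to 0.658%). With MTOAC (8, 5.75%) it was 1 with only the compared groups (Rbm12; 0.0833%), 12 with the replicate block (3 higher, Rbm15, Rbm18 and Rbm24; 13.8%), 14 with the block and quantile normalization (6 higher; 4.78%), and 5 to 10 with 1 library left out (0.991% to 4.38%); the lowest counts came without MTOAC library 1 or 2 and the highest without MTOAC library 3. By the correlations the numbers did not pair AEBDAC or MTOAC with vehicle, but they paired AEBDAC with CPC and MTOAC with AEBDAC. The labels do not say whether a number marks a shared batch. With the replicate block, 225 of the 12009 tested genes were called higher with AEBDAC and 245 with MTOAC. With the block and quantile normalization these numbers were 487 and 620. With CPC the replicate block gave 4 (1.25%). Between compounds the count was 0 in every alternative. A fit with all groups has more residual degrees of freedom and 1 spread shared by the groups. The part of these in its larger counts was not tested. Directions turned only in uncalled members: Rbm25 with AEBDAC was 0.064 after quantile normalization, with or without the block, and with 1 library left out the log2 fold change ran from -0.13 to 0.17 for Rbm8a, -0.030 to 0.24 for Rbm39 and -0.92 to 0.49 for Rbm19 with CPC, -0.67 to 0.74 for Rbm19 with AEBDAC and -0.16 to 1.31 for Rbm19 with MTOAC. The sums over overlapping genes were chosen after seeing the data. TPM carry no depth, so counting error is unknown, and members at a few TPM (Rbm12, Rbm19, Rbm46) are the least certain.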
